A study of Mus musculus with 6 samples.

Results

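The genes described here make cholesterol and fatty acids or control and carry their products. They are 30 genes chosen by symbol from a list of the pathway: 18 sterol synthesis genes (7 of the mevalonate steps and 11 of the squalene and sterol ring steps), 3 regulators and 1 sterol carrier protein gene, and 8 fatty acid genes. Of these, 29 had a probe set paired with that gene alone, out of 18194 genes measured in all, and Acat2, the cytosolic thiolase that opens the mevalonate route, was not analysed here. All 29 were bright enough to pass the filter on low values, which kept 13242 genes. The lowest member value was 8.69 on the time-course arrays and 8.01 on the other arrays, both for Tm7sf2, against a filter of 7.95 log2 units.

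The series profiled C2C12, a mouse myoblast line that fuses into myotubes once serum is lowered, on 6 Affymetrix arrays, 1 per group. Parental cells were taken in growth medium (10% fetal bovine serum), at day 0 right after the change to differentiation medium (2% horse serum), and on day 2 and day 4 in that medium. The other 2 groups were stable transfectants at day 0, kept under G418 at 500 µg/ml for 2 weeks, which carried either shRp58, a hairpin against the transcriptional repressor Rp58 (gene symbol Zbtb18), or a control that the labels call both a LacZ vector and a control hairpin. Whether each line was a clone or a pool is not stated in the labels. With 1 array a group there is no replicate error and no test: values are log2 units, a difference is between 2 single arrays, and precision is limited by that number of arrays.

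The 4 time-course arrays had medians of 8.26 to 8.27 over all probe sets and the 2 stable-line arrays of 7.15, so no time-course value is subtracted from a stable-line value. All 8 myoblast and myotube markers passed the filter. Myod1 read 12.09 to 13.03 and Des 12.87 to 13.97 on the 6 arrays. In growth medium Tnnt3 (7.83) lay below the filter, Myh3 read 8.09 and Ckm 8.82. Myf5 was lower at day 4 (9.93) than at day 0 (11.21). Of 7 adipocyte markers measured 4 passed the filter, and the mean level of the 7 in the time course was 7.45 to 7.56. The 4 were Retn (9.12 to 9.41 there), Pparg (8.16 to 8.76), Lipe (8.09 to 8.57) and Fabp4 (7.75 to 8.21). The fat hormone gene Adipoq read 5.57 to 5.91, below the filter, as were Lep and Cidec. Hepatocyte markers (1 of 3 past the filter) had means of 8.18 to 8.29 in the time course, and leukocyte and endothelial markers (2 of 6) of 7.46 to 7.58. Those past the filter were Ttr (9.21 to 9.51 there), Cd3e (9.75 to 10.29) and Adgre1 (9.22 to 9.51). Passing the filter therefore does not by itself show that a gene was expressed. The 3′ minus 5′ control values for Actb lay between 0.12 and 0.24 on the 6 arrays, and for Gapdh between -0.01 and 0.21. Proliferation genes moved with the groups: the mean of 5 such genes was 12.91 and 12.73 in growth medium and at day 0, 10.89 at day 2 and 10.18 at day 4. The part of cell cycle exit in the results below was not tested, and in these bulk samples fewer cells of a type cannot be told apart from less RNA per cell.

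Cells build cholesterol from acetyl-CoA through mevalonate and the isoprenoid farnesyl diphosphate to squalene, which is closed to lanosterol and then trimmed and reduced to cholesterol. Fatty acids come from the same acetyl-CoA, which is carboxylated to malonyl-CoA, polymerised to palmitate, and then lengthened and desaturated. Both routes are driven by the SREBP transcription factors, which leave the endoplasmic reticulum for processing when sterol is low, while the Insig proteins hold them back. SREBP-2 is known for the sterol genes and SREBP-1 for the fatty acid genes, and SREBP acts at promoters beside the CCAAT-binding factor NF-Y and Sp1. In muscle, fusion of myoblasts makes large new membranes of cholesterol and phospholipid.

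The promoters are shown first, and the part of SREBP in the values below was not tested. RefSeq promoter windows (GRCm38.p6, 250 bases before to 50 after a start) were found for 23 of the 30 genes. None was matched for Fdps, Fdft1, Sqle, Stard4, Scd1, Scd2 or Fads1. Both strands were searched for 4 motifs: the sterol regulatory element TCACNCCAC, the NF-Y box CCAAT, the Sp1 box GGGCGG and the E-box CACGTG. The 150 bases before the start are printed 5′ to 3′ on the strand of the gene, in lower case with every match of these motifs, on either strand, in capitals. Hmgcs1, Mvd, Msmo1, Ebp and Insig1 stand for genes that were higher at day 2, and Fasn and Elovl6 for fatty acid genes that were lower at day 4.
Hmgcs1 (chr13:119690201-119690350, plus strand): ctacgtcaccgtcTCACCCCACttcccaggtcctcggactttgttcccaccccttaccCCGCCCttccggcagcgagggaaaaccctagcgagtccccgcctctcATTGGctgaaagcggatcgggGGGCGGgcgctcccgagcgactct
Mvd (chr8:122443423-122443572, minus strand): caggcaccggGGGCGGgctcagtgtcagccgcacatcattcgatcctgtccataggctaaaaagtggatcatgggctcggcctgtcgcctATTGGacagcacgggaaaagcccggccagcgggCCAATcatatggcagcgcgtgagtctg
Msmo1 (chr8:64733579-64733728, minus strand): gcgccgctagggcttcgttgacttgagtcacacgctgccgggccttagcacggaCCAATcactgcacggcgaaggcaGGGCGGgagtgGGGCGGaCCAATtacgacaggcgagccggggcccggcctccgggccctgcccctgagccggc
Ebp (chrX:8193513-8193662, minus strand): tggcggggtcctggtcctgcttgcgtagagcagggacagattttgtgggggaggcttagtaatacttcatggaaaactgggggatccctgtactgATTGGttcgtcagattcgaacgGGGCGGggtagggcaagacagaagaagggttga
Insig1 (chr5:28071262-28071411, plus strand): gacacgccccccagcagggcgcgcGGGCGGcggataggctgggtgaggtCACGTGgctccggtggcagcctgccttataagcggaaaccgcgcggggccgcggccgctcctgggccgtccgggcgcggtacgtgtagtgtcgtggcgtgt
Fasn (chr11:120824548-120824697, minus strand): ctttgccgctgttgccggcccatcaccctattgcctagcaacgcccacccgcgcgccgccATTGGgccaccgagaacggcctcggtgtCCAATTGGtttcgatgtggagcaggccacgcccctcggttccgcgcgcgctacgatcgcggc
Elovl6 (chr3:129532236-129532385, plus strand): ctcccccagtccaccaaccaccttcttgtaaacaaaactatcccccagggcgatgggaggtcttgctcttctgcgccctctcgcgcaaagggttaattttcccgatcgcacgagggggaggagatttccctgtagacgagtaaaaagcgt

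In the full 300-base windows, CCAAT or its complement was found for 14 of 15 sterol synthesis genes and for 2 of 5 fatty acid genes, against 41.1% of 27025 genes with a window. The Sp1 box was found for 14 of the 15 and for 2 of the 5, against 38.2% of genes. TCACNCCAC was found in Hmgcs1 alone among the 23, against 1.44% of genes, and CACGTG in Hsd17b7, Sc5d, Dhcr7 and Insig1, against 8.09%. In Fasn a CCAAT match and an ATTGG match on the other strand share 2 bases. Elovl6 held none of these 4 motifs. The 27025 genes include ones that the arrays did not measure or the filter did not keep, and no motif share over kept genes was taken. A match is a string of letters and not a measured binding site.

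The course of the sterol genes asks how the pathway stood as myoblasts became myotubes. At day 2 most sterol synthesis genes were higher than at day 0, and at day 4 most were back near or below their day 0 level. Of all 29 members 18 lay above 0 at day 2, against 48.0% of kept genes, and 15 of those 18 were among the 17 sterol synthesis genes measured. The 17 had a median of 0.42, against -0.01 for all kept genes. From day 2 to day 4, 15 of them were lower, with a median of -0.36 against -0.03, where 43.9% of kept genes were higher. Day 2 was the highest of the 4 arrays for 12 of the 17, and for 15 of all 29 members, where 19.2% of kept genes had their highest value at day 2. Another 2 genes of the steps from lanosterol to cholesterol, Ebp and Dhcr7, were highest at day 4.

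**Figure D1:**
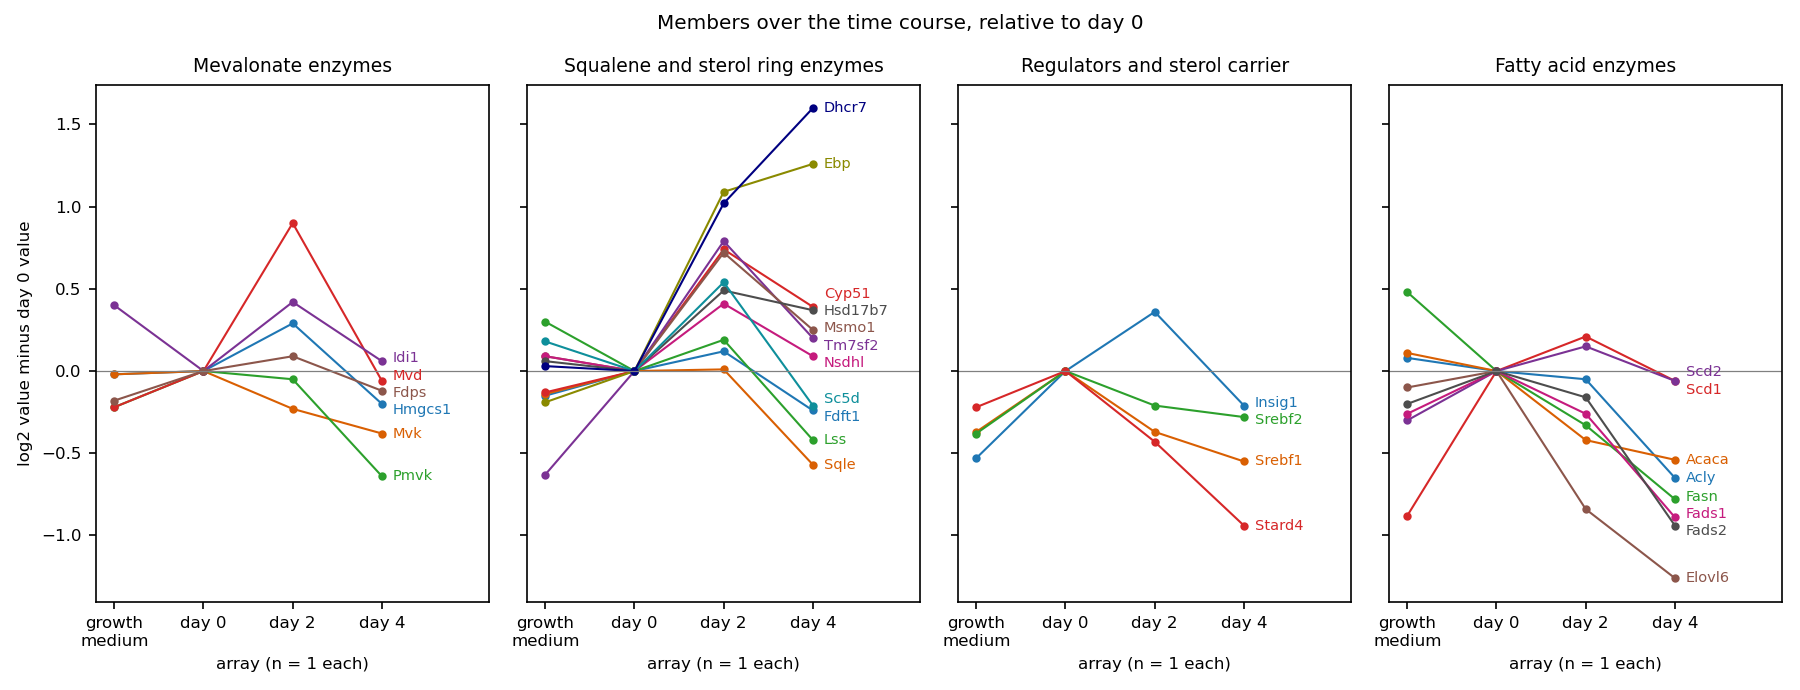
Each line is 1 gene on 4 single arrays, in growth medium and at days 0, 2 and 4, as its log2 value minus its day 0 value, with 1 panel for each role. Most sterol lines peak at day 2, Dhcr7 and Ebp end at 1.60 and 1.25, and the fatty acid lines end at or below 0, with Elovl6 at -1.26.

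Ebp and Dhcr7 were the only members at least 2-fold higher at day 2, where 2.67% of kept genes were, and the only ones at day 4, where 3.83% were. Ebp, the isomerase that moves the ring double bond, read 11.58 and 11.77 in growth medium and at day 0, and 12.86 and 13.03 on days 2 and 4. Dhcr7, the reductase of the last step of one branch of the pathway, read 10.49, 10.46, 11.48 and 12.06 on the same arrays. Growth medium and day 0 lay within 0.19 of each other for both genes, and both later arrays stood above them. Ebp stood 1.09 higher at day 2 than at day 0 (2.13-fold) and 1.25 at day 4 (2.38-fold), and Dhcr7 1.02 (2.03-fold) and 1.60 (3.03-fold). From day 2 to day 4 these 2 genes alone among the 29 lay above 0, Dhcr7 by 0.58 and Ebp by 0.16, where 43.9% of kept genes did. Each was read by 1 probe set, so no other probe set bears on its course.

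At 1.5-fold, 0.58 on the log2 scale, 6 members were higher at day 2, against 6.68% of kept genes, and all 6 were sterol genes. Beside Ebp and Dhcr7 these were Mvd, Tm7sf2, Cyp51 and Msmo1. Mvd, the decarboxylase that ends the mevalonate arm, read 9.14 and 9.36 in growth medium and at day 0, then 10.26 at day 2 and 9.30 at day 4. Day 2 alone stood out, by 0.90 over day 0, with -0.95 from day 2 to day 4, and its second probe set gave 0.88 and -0.81. Tm7sf2, a sterol reductase, read 8.69, 9.32, 10.11 and 9.52 in the same order, the lowest array being growth medium. Its step from growth medium to day 0 (0.63) was nearly as large as that from day 0 to day 2 (0.79). Cyp51, the lanosterol demethylase, read 10.61, 10.74, 11.48 and 11.13, and its other probe sets gave 0.65 and 0.39 at day 2 beside its own 0.74. Msmo1, the methyl sterol oxidase, read 11.71, 11.62, 12.34 and 11.87, a difference of 0.72 at day 2. Its second probe set, which was dim at 6.39 to 6.96 over these arrays, gave 0.18.

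The remaining ring and squalene genes were above 0 at day 2 by less. Sc5d, the sterol desaturase, read 9.60, 9.42, 9.96 and 9.21 in growth medium and at days 0, 2 and 4. Hsd17b7, the sterol keto-reductase, read 10.23, 10.17, 10.66 and 10.54, and Nsdhl, the decarboxylating dehydrogenase, 11.77, 11.68, 12.09 and 11.77. Their differences at day 2 were 0.54, 0.49 and 0.41. At day 4 the brightest probe set of Sc5d gave -0.21 and the others 0.51 and 0.28. Lss, which closes squalene epoxide into lanosterol, read 11.04, 10.74, 10.93 and 10.32, highest in growth medium. Fdft1, squalene synthase, read 11.59, 11.74, 11.86 and 11.50. Sqle, squalene epoxidase, read 12.36, 12.50, 12.51 and 11.93. The last 3 differed from day 0 by 0.19, 0.12 and 0.01 at day 2 and by -0.42, -0.24 and -0.58 at day 4. For Lss the probe sets disagreed at day 4, with -0.42 for the brightest and 0.12 and 0.31 for the others.

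The mevalonate genes were mixed at day 2. Hmgcs1, which makes HMG-CoA, read 12.58, 12.60, 12.89 and 12.40 in growth medium and at days 0, 2 and 4, and its 5 probe sets gave 0.28 to 0.49 at day 2. Idi1, the isopentenyl isomerase, read 11.71, 11.31, 11.73 and 11.37, so that day 0 was its lowest array. Fdps, farnesyl diphosphate synthase, read 12.95, 13.13, 13.22 and 13.01, with no step larger than 0.21 in either direction. The 2 kinases lacked the day 2 peak. Mvk, mevalonate kinase, read 9.86, 9.88, 9.65 and 9.50, and Pmvk, phosphomevalonate kinase, 9.91, 10.13, 10.08 and 9.49. The median of the 6 mevalonate genes was 0.18 at day 2 and -0.17 at day 4, against 0.54 and 0.21 for the 11 squalene and ring genes. The second probe set of Mvk gave 0.07 at day 2 where the brighter gave -0.23.

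Regulators took another course. Insig1, which holds SREBP in the endoplasmic reticulum and is itself an SREBP target, read 9.83, 10.36, 10.72 and 10.15 in growth medium and at days 0, 2 and 4, and like the sterol enzymes was highest at day 2. Srebf2, which encodes SREBP-2, read 12.13, 12.51, 12.30 and 12.23, and Srebf1, which encodes SREBP-1, 11.08, 11.45, 11.08 and 10.90. Both were highest at day 0, so their transcripts did not follow the sterol enzymes at day 2. The second probe set of Srebf2 gave -0.20 at day 2, close to the -0.22 of the first. Stard4, a soluble carrier of sterol between membranes, read 10.73, 10.95, 10.52 and 10.01. Day 4 minus day 0 was -0.93 (1.91-fold lower), and its other probe sets gave -1.08 and -1.32.

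Fatty acid genes were lower as differentiation went on. At day 4 all 8 lay below day 0 as deposited, with a median of -0.72 against -0.04 for all kept genes, while after loess normalization Scd1 (0.06) and Scd2 (0.05) lay above it. The median was -0.46 when all probe sets of a gene were averaged. Of the 29 members, 7 were at least 1.5-fold lower at day 4, where 14.0% of kept genes were, and 5 of these 7 were fatty acid genes: Elovl6, Fads2, Fads1, Fasn and Acly. The other 2 were Pmvk and Stard4. Only 2 members, Ebp and Dhcr7, were 1.5-fold higher, where 8.36% of kept genes were. Of the 29 members 8 lay above 0, all of them sterol genes, against 45.2% of kept genes, and 15 had day 4 as their lowest array, 6 of them fatty acid genes, against 30.7%.

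Elovl6, the elongase that takes palmitate to stearate, was the only member at least 2-fold lower at day 4, where 5.66% of kept genes were. It read 11.58 and 11.68 in growth medium and at day 0, and 10.84 and 10.42 on days 2 and 4. Both later arrays lay below both earlier ones, with differences from day 0 of -0.85 and then -1.26 (2.40-fold). Its other probe sets gave -0.95 and -0.25 at day 2 and -1.48 and -0.73 at day 4, the smaller of each pair from a dim probe set. Elovl6 was also the only member at least 1.5-fold lower at day 2, where 8.34% of kept genes were.

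The desaturases of polyunsaturated fatty acids were lowest at day 4. Fads1, the delta-5 desaturase, read 11.66, 11.92, 11.66 and 11.03 in growth medium and at days 0, 2 and 4. Fads2, the delta-6 desaturase and its direct neighbour on chromosome 19, read 10.90, 11.10, 10.94 and 10.16. Most of the day 4 difference of either gene, -0.89 for Fads1 and -0.94 for Fads2, lay between day 2 and day 4. The probe sets did not all show this: the second of Fads1 gave -0.06 at day 4, and those of Fads2 gave -0.69 and -0.67 at day 4 and -0.68 and 0.08 at day 2.

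The enzymes that supply and build palmitate were lower by similar amounts. Fasn, fatty acid synthase, read 12.61, 12.13, 11.80 and 11.35, each array lower than the one before. Acly, which releases acetyl-CoA from citrate, read 12.71, 12.63, 12.58 and 11.98, with its step after day 2. Acaca, which makes malonyl-CoA, read 10.97, 10.86, 10.44 and 10.32. Their differences at day 4 were -0.78, -0.65 and -0.54 against day 0. The 6 probe sets of Acly did not all move: those that read above 10.00 on every time-course array gave -0.65, -0.73 and -0.88, and the dimmer ones 0.07, 0.03 and -0.34.

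The stearoyl-CoA desaturases, which put the first double bond into stearate, showed no such difference at day 4 on their brightest probe sets. Scd1 read 12.33 and 13.21 in growth medium and at day 0, and 13.42 and 13.15 on days 2 and 4, and Scd2 read 13.61, 13.91, 14.06 and 13.85. Growth medium was the lowest array for both genes and the later 3 arrays lay close together. Their differences at day 4 were -0.05 and -0.06 against day 0. The second probe set of Scd1 gave -0.83 there, and those of Scd2 gave -0.16 and -0.22. Probe sets also disagreed at day 2: the brighter one of Scd1 gave 0.22 and the other -0.67, and those of Scd2 gave 0.15, -0.05 and -0.88. Scd1 and Scd2 are close paralogs on chromosome 19 with only Scd4 between them among coding genes, so signal shared between them was not tested.

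**Figure D2:**
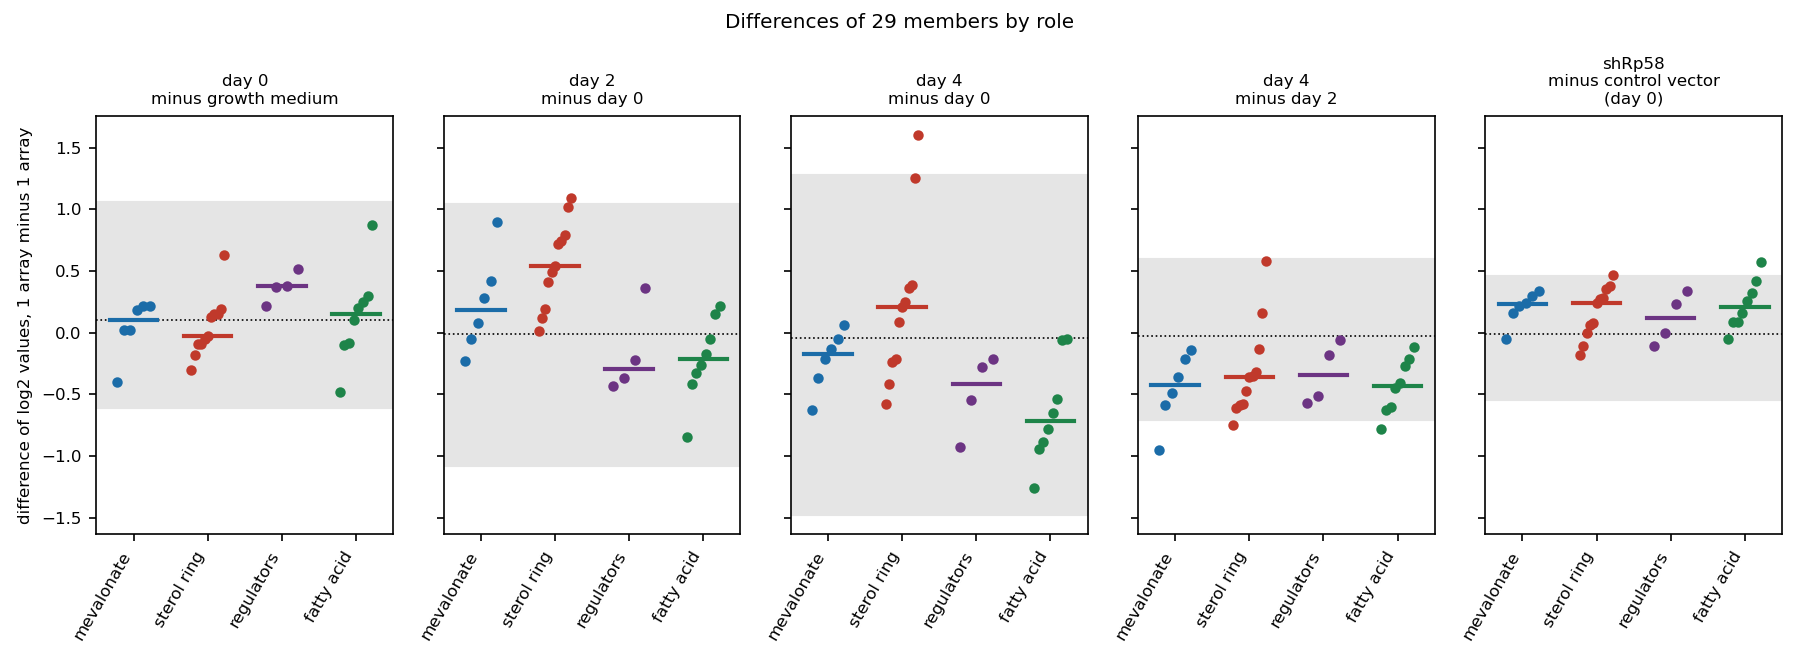
Points are the 29 measured members by role in 5 comparisons of 1 array with 1 array, as differences of log2 values. Coloured bars are role medians, the dotted line is the median and the grey band the central 95% of 13242 kept genes. The sterol ring median is 0.54 at day 2 and the fatty acid median -0.72 at day 4, while Dhcr7 alone lies above the band at day 4.

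Between day 2 and day 4 nearly the whole group was lower. Of 29 members 27 lay below 0, with a median of -0.41 against -0.03 for all kept genes, of which 43.9% lay above 0. At least 1.5-fold lower were 8 members, Mvd, Fads2, Sc5d, Fads1, Lss, Acly, Sqle and Pmvk, against 4.19% of kept genes, and 0 were 1.5-fold higher, against 2.62%. After centring each array on its median, or after loess normalization, these counts were 5 lower and 1 higher, and with all probe sets of a gene averaged 3 were lower. Of the 17 members with at least 2 bright probe sets, 15 had probe sets of 1 sign at this step, the exceptions being Acly and Scd2. Sizes agreed less, and for 4 of the 17, Acly, Fads2, Sc5d and Scd2, bright probe sets lay over 1.5-fold apart. Among the 8 called lower, other bright probe sets gave -0.74 and -0.00 for Fads2, -0.25 and -0.11 for Sc5d and -0.05 for Fads1. Those of Acly gave -0.54, -0.60 and 0.18, that of Mvd -0.81 and that of Lss -0.41. Pmvk and Sqle had 1 probe set each. Over all genes with 2 bright probe sets, the brightest 2 differed by a median of 0.13 at this step and of 0.20 for day 4 against day 0, so gaps of that size between members carry little weight.

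The step from growth medium to day 0, which spans confluence and the change of medium, moved these genes less. Of 29 members 19 lay above 0, close to the 61.2% of kept genes, and the median was 0.15 against 0.10. At least 1.5-fold higher were 2 members, Scd1 (0.87) and Tm7sf2 (0.63), against 10.9% of kept genes, and 0 were 1.5-fold lower, against 2.94%. Scd2 gave 0.30 on its brightest probe set but 0.87 and 1.43 on the others. With all probe sets of a gene averaged, 3 members were higher, against 8.85% of kept genes. After quantile or loess normalization of the arrays the count was 1 higher and 2 lower, and these scalings moved the median of all kept genes from 0.10 to -0.03 and 0.00. All 4 regulator and carrier genes were higher at day 0: Insig1 by 0.52, Srebf2 by 0.38, Srebf1 by 0.37 and Stard4 by 0.22. Their median was 0.38, or 0.28 relative to the median of all genes, and it was 0.17 after quantile and 0.18 after loess normalization. Fasn (-0.48), Idi1 (-0.40) and Lss (-0.30) were the lowest members, although for Lss another bright probe set gave 0.29. Probe sets differed in sign for 8 of 17 members at this step.

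In the stable lines the comparison asks how these genes stood under the Rp58 hairpin. The target gene Zbtb18 read 11.69 in control-vector cells against 11.16 in shRp58 cells, or -0.53 on 1 probe set. Most lipid synthesis genes were slightly higher with shRp58, none of them by 1.5-fold. Of 29 members 22 lay above 0, against 47.5% of kept genes, and the median was 0.23 against -0.01. The counts at 1.5-fold were 0 higher and 0 lower, against 1.43% and 2.25% of kept genes, and 1 higher after quantile or loess normalization. The median was 0.23 for the mevalonate genes, 0.24 for the ring genes, 0.21 for the fatty acid genes and 0.12 for the regulators and carrier. Over all genes with 2 bright probe sets, the brightest 2 differed by a median of 0.11 between these arrays, with a 90th percentile of 0.33. That gap leaves out differences between cultures.

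Elovl6 stood furthest up, from 9.60 on the control array to 10.17 on the shRp58 array, or 0.57 (1.49-fold), and its other probe sets gave 0.54 and 0.33. Tm7sf2 read 8.01 and 8.48, Fads2 9.89 and 10.30, and Cyp51 9.11 and 9.49. On their brightest probe sets these 4 genes lay between the 96.4th and the 98.5th percentile of kept genes. The other probe sets of Cyp51 gave 0.20 and 0.16, and those of Fads2 0.36 and 0.35. Among the other fatty acid genes, Acly read 10.89 with the control vector and 11.20 with shRp58, Fasn 10.26 and 10.52, and Fads1 10.67 and 10.84. Acaca (9.15 and 9.25), Scd2 (13.08 and 13.17) and Scd1 (12.75 and 12.70) differed by no more than 0.09. The second probe set of Fads1 gave -0.23, and those of Scd2 gave 0.22 and 0.08.

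The mevalonate genes lay close together. Fdps read 11.82 with the control vector and 12.16 with shRp58, Idi1 9.51 and 9.81, Mvk 8.81 and 9.05, and Pmvk 8.60 and 8.82. Hmgcs1 read 11.24 and 11.40, but its other probe sets gave 0.00 to 0.03, and Mvd read 8.18 and 8.14. Of these 6 genes only Mvd lay below 0, by 0.05, and its other probe set gave 0.11. Among squalene and ring genes, Msmo1 read 10.19 and 10.54, Lss 9.30 and 9.58, Sqle 11.43 and 11.70, and Nsdhl 10.27 and 10.51. The 2 dimmer probe sets of Lss gave -0.09 and -0.11. Sc5d (8.04 and 8.12), Fdft1 (10.89 and 10.95) and Hsd17b7 (9.14 and 9.13) differed by 0.08 or less, although the other probe sets of Sc5d gave -0.33 and 0.02.

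Ebp and Dhcr7, the genes furthest up at day 4 of the time course, were with Srebf2 the 3 lowest members in shRp58 cells. Ebp read 10.79 with the control vector and 10.61 with shRp58, and Dhcr7 9.34 and 9.23, differences of -0.18 and -0.11. Srebf2 read 11.42 and 11.31, but its second probe set gave 0.15, and Insig1 read 9.29 on both arrays. Srebf1 read 9.95 and 10.18 and Stard4 9.11 and 9.44, where the other probe sets of Stard4 gave 0.31 and 0.40.

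**Figure D3:**
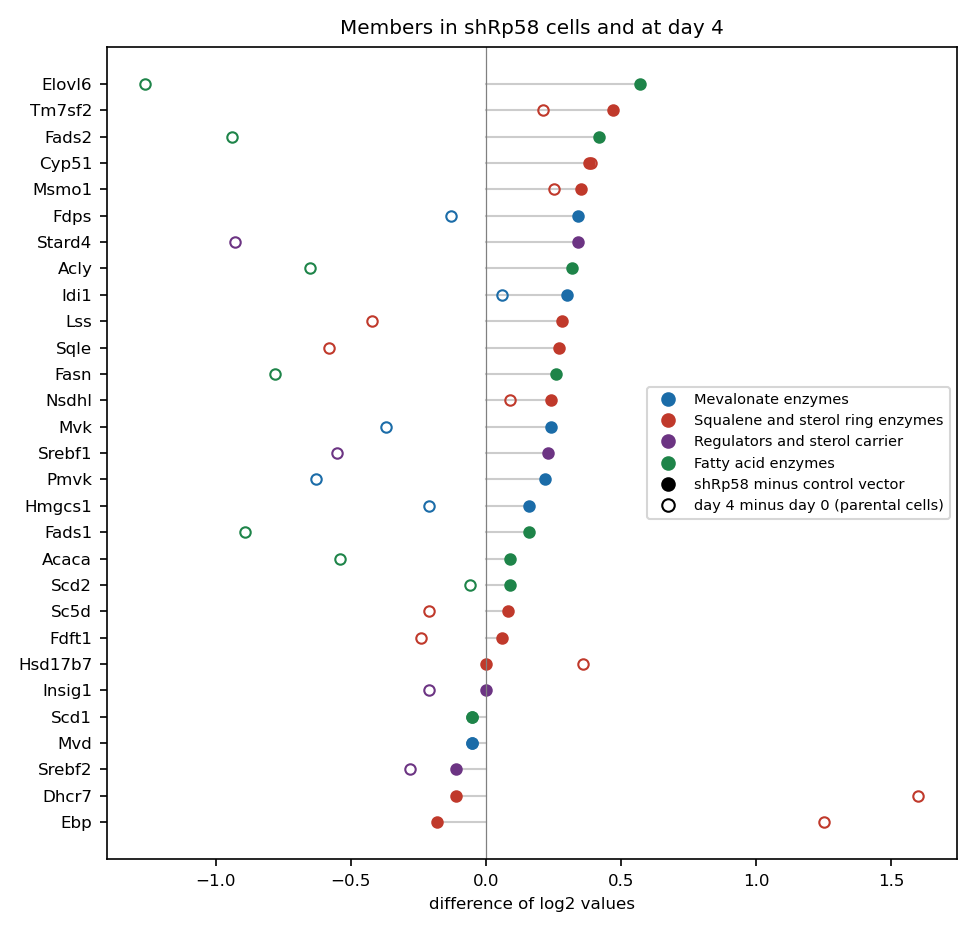
Filled circles are shRp58 minus control vector at day 0 and open circles day 4 minus day 0 of parental cells, as differences of log2 values for 29 members in order of the first, coloured by role. Elovl6 is at 0.57 and -1.26, and Ebp and Dhcr7 are at -0.18 and -0.11 for the hairpin but at 1.25 and 1.60 for day 4.

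The hairpin comparison and the time course share no array, so members can be set side by side. Of the 22 members above 0 with shRp58, 17 (77.3%) lay below 0 at day 4, against 66.0% of the kept genes above 0 with shRp58. Of the 7 members below 0 with shRp58, 3 (42.9%) lay above 0 at day 4, against 55.5% of such kept genes. Across the 29 genes the shRp58 difference and day 4 minus day 0 had Pearson r = -0.53 and Spearman rho = -0.33, against -0.64 and -0.39 across 13242 kept genes. Against day 4 minus day 2 the members had r = -0.44 and rho = -0.37, and the kept genes -0.24 and -0.11, so the members' values were nearer to 0 in the first case and farther from it in the second. Genes are not independent replicates, and these values describe 4 single arrays. The 5 proliferation genes were higher with shRp58 by a median of 0.84, with a mean of 11.00 on the control array and 11.81 on the shRp58 array, and had a median of -2.75 at day 4. The 8 myoblast and myotube markers all lay lower with shRp58, where their mean was 11.79 against 12.53 on the control array. The part of either list in the lipid genes' pattern was not tested.

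Other genes of sterol and lipid metabolism were taken from 7 lists with 80 genes, of which 69 were measured. At day 2, 36 of the 69 lay above 0 with a median of 0.03, against 48.0% of kept genes, and 20 had day 2 as their highest array, against 19.2%. At least 1.5-fold apart at day 2 were 8 genes higher and 3 lower, against 6.68% and 8.34% of kept genes. At day 4 there were 4 higher and 13 lower, against 8.36% and 14.0%. In the list of sterol efflux and storage all 6 measured genes were above 0 at day 2 (median 0.60), against 48.0% of kept genes. All 6 lay below their day 2 value at day 4 (median -0.24), where 43.9% of kept genes lay above it. They stayed above day 0 at day 4 (median 0.28), as 45.2% of kept genes did, while the 17 sterol synthesis genes had a median of -0.05. Nr1h3, among the 6, was below the filter on every array. Abca1, the pump that loads cholesterol onto apolipoproteins, read 8.08 and 8.18 in growth medium and at day 0, and 9.55 and 8.71 on days 2 and 4. Apoe, the lipoprotein component, read 6.64, 6.58, 9.51 and 9.31, from below the filter up to day 0, so its difference of 2.94 is not exact. Mylip, a ubiquitin ligase for lipoprotein receptors, was 1.06 higher at day 0 than in growth medium.

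**Figure D4:**
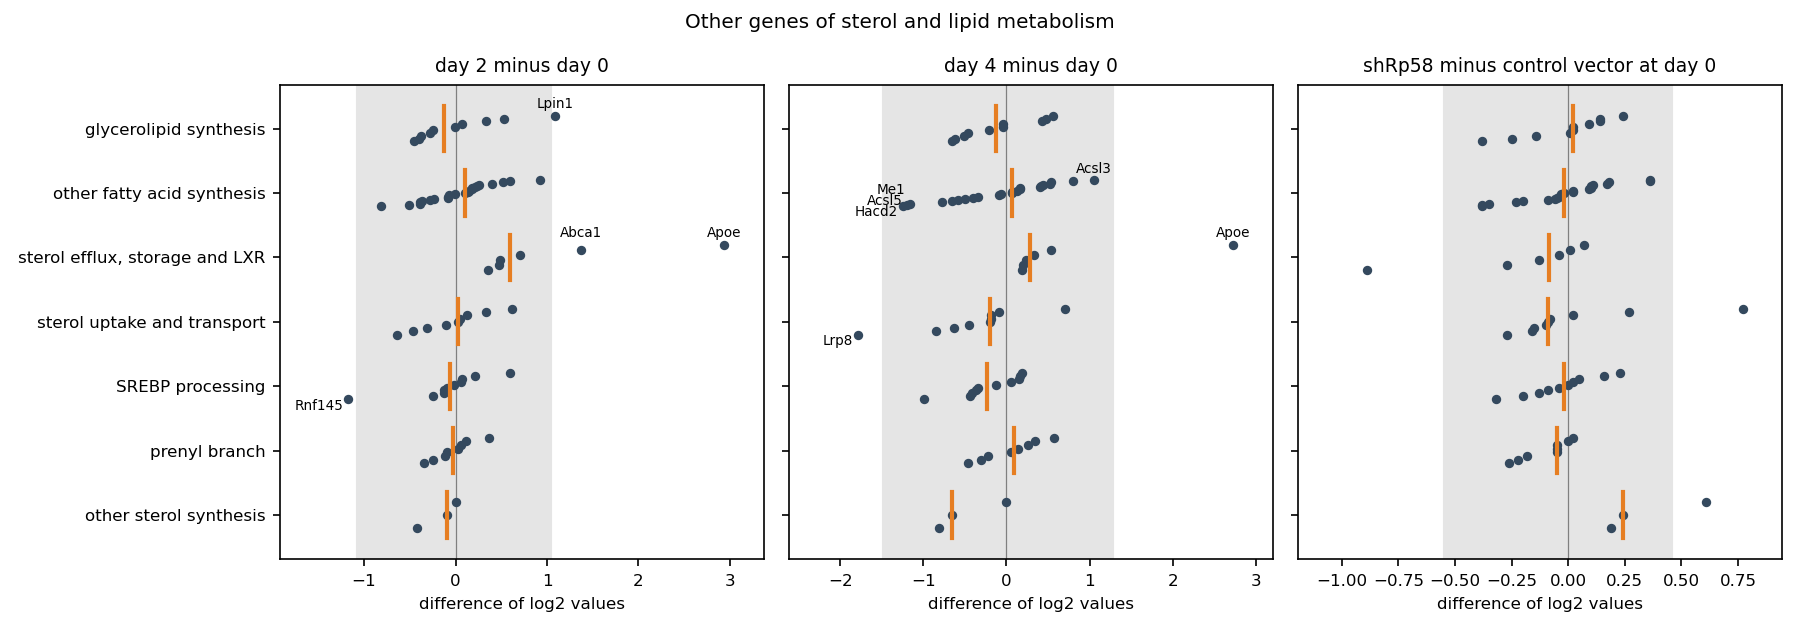
Each point is 1 gene of 7 lists of sterol and lipid metabolism outside the 29 members, as a difference of log2 values in 3 comparisons, with its list's median in orange and the central 95% of kept genes in grey. Sterol efflux and storage genes have a median of 0.60 at day 2, with Apoe at 2.94 and Abca1 at 1.37, and Lrp8 is at -1.79 at day 4. Genes 2-fold apart are named.

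Of the genes that process SREBP, 10 of 10 were higher at day 0 than in growth medium as deposited (median 0.35). Of kept genes 61.2% were. After quantile (median 0.14) or loess normalization (0.16) 6 of the 10 were higher. Insig2, the second Insig protein, was 1.12 higher at that step and stayed between 11.59 and 11.72 at days 0, 2 and 4. Scap, which escorts SREBP, read 11.48, 11.59, 11.65 and 11.15, and the ligase Rnf145 stood at -1.17 at day 2 against day 0. In sterol uptake and transport 8 of 9 genes lay below day 0 at day 4 (median -0.20), and 7 of 9 after loess normalization. Of kept genes 45.2% lay above day 0 there as deposited. Lrp8, a lipoprotein receptor, read 10.30, 9.55, 8.91 and 7.75, or -1.79 at day 4 against day 0, and stood 0.77 higher with shRp58. Its day 4 and control-vector (7.48) values lay below the filter, so neither difference is exact. Of the 8 prenyl branch genes 0 were 1.5-fold apart in any comparison, and Ggps1, which makes the geranylgeranyl group, was 0.37 higher at day 2.

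The other sterol synthesis genes did not share the day 2 peak. Lbr, a sterol reductase of the nuclear envelope, read 11.91, 11.39, 10.96 and 10.58 on the time-course arrays, and 9.64 with the control vector and 10.25 with shRp58. Erg28 differed by -0.66 at day 4 from day 0. The third gene measured was below the filter on every array.

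Of 23 other fatty acid synthesis genes, 5 were at least 1.5-fold lower and 2 higher at day 4, where 14.0% and 8.36% of kept genes were, with a median of 0.07 beside the -0.72 of the 8 members. Lower by 2-fold or more were Hacd2 (-1.24), a dehydratase of elongation, the acyl-CoA synthetase Acsl5 (-1.19) and Me1 (-1.16), the malic enzyme that supplies NADPH. Acsl3, another acyl-CoA synthetase, was higher at both steps, reading 10.65 and 11.69 in growth medium and at day 0, and 12.61 and 12.74 on days 2 and 4. Among 10 glycerolipid genes, Lpin1, a phosphatidate phosphatase, read 8.51, 9.14, 10.23 and 9.70, which is 1.09 higher at day 2 than at day 0. None of the 10 was 1.5-fold higher at day 4, where 8.36% of kept genes were.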

How the data were processed

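RNA of 6 cultures was hybridised as 10 ug of cRNA to Affymetrix mouse 430 2.0 arrays, and the deposited log2 values were made by the authors with RMA, as the design text states; the software and the set of arrays normalized jointly are not stated. Groups were taken from the sample titles. Of 45101 probe sets, the platform annotation paired 34958 with 1 gene, 932 with several and 9211 with none listed. Symbols were updated through RefSeq gene identifiers (GRCm38.p6), and promoter sequences come from RefSeq. Per gene the probe set with the highest mean over the 6 arrays was used. Kept genes reach 7.95, the median of all values, on at least 1 array. The rule for named genes was every member, the listed pathway genes at least 2-fold apart in a comparison, and at most 2 more per list. The members and lists were chosen with earlier results of these data known. On simulated data only 2-fold calls and the median over all genes were checked, for day 2 minus day 0 and with shifts well past 2-fold. The 1.5-fold counts and the medians of members were not checked that way. Alternatives, fixed with the design, were 3 scalings (limma 3.58.1), other probe set choices, filters and a 2-fold threshold. Scripts used Python 3.11.15 and R 4.3.3. The scalings were applied to the other pathway lists after their values had been seen.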

Additional observations from a re-analysis of the deposited data

How the results depend on the processing

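No paired analysis was possible because each group has 1 array, and no array could be left out of a comparison. Median differences count as moved at 0.1 log2 or more. The 17 sterol genes kept a positive median at day 2 (0.41 to 0.55) and a negative one from day 2 to day 4 (-0.39 to -0.34), and the 8 fatty acid genes a negative one at day 4 (-0.76 to -0.46) under the 5 alternative scalings and probe set choices.

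At day 0 against growth medium, quantile normalization moved the sterol median from 0.02 to -0.15. It reversed that of the fatty acid genes from 0.15 to -0.04, as loess did to -0.02. With either scaling 1 member was 1.5-fold higher and 2 lower. At day 2 the sterol median was 0.55 (quantile) and 0.53 (loess), and the fatty acid median -0.11 (loess). Averaging probe sets gave 2 members lower. At day 4 the fatty acid median was -0.59 (loess) and -0.46 (averaged probe sets), and the sterol median 0.06 with probe sets without a suffix in place of -0.05. Day 4 against day 2 gave 5 lower and 1 higher after centring or loess, 3 lower with averaged probe sets, and a fatty acid median of -0.33 there. With shRp58 the sterol median was 0.11 with probe sets without a suffix, and 1 member was 1.5-fold higher after quantile or loess normalization. At 2-fold the counts were 0 higher at day 0 against growth medium, 2 higher and 0 lower at day 2, 1 lower at day 4, and 0 lower from day 2 to day 4. The causes were not tested. The gap between the brightest 2 probe sets of a gene had medians of 0.11 to 0.20 over the 5 comparisons, and 90th percentiles of 0.33 to 0.67. Differences no larger than the median gap carry little weight. Both probe sets were read on the same arrays, so the gap leaves out differences between cultures and between arrays. With 1 array a group it is not known how large a difference these arrays resolve.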
